A study of Saccharomyces cerevisiae with 14 samples.

Results

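The thioredoxin, glutathione and peroxide defence genes of budding yeast (Saccharomyces cerevisiae) described here number 34, of the 6094 genes measured on the arrays. They were taken from a list of redox genes by standard gene name or systematic open reading frame name, and all 34 were found, each at 1 array position with 2 spots. They were found by gene name and not by a measured value, but the list was drawn up with earlier results of these data known. Total RNA had been copied into 33P-labelled cDNA and hybridised to gene membranes, and the study asked how low doses of methyl methanesulfonate (MMS), an agent that methylates DNA, alter transcript levels. Cultures of strain FF18984 in mid log phase were divided into portions that received mock treatment, 0.00125% MMS or 0.0125% MMS. They were grown in YPD, a full medium, or in F1, a minimal medium, and sampled at 1 h or at 30 min, which gives 12 arrays. Strain BY4742, a laboratory strain of mating type alpha, was treated with 0.0125% MMS or mock-treated in YPD and sampled at 1 h, which gives 2 arrays. The labels give no genotype beyond the strain names. Each condition has 1 array, and the arrays of 1 medium, time and strain were hybridised in turn to the same stripped membrane, so the 14 arrays form 5 membrane sets.

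Yeast removes peroxides with peroxiredoxins, glutathione peroxidases, catalases and cytochrome c peroxidase, and superoxide with superoxide dismutases. Peroxiredoxins are returned to their active form by thioredoxins and thioredoxin reductase. Glutaredoxins draw on glutathione, a tripeptide kept reduced by glutathione reductase. Both reductases use NADPH, much of which comes from the oxidative branch of the pentose phosphate pathway, and many of these genes are known targets of the transcription factors Yap1 and Skn7.

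Levels are normalized log2 intensities, so that a difference of 1 is a 2-fold change, and levels of different genes are not set against each other because each gene has its own probe. Across the arrays the median background-subtracted signal ran from 41.7 to 2018612, and between 2.58% and 33.4% of all genes lay at or below the local background. Of the 34 redox genes, 0 to 6 per array lay there. In total 49 of the 476 values of these genes were at or below background, and 23 genes were above it on all 14 arrays. GRX1 lay at or below it on 11 arrays, MXR1 on 8, TRX3 on 7 and GRX2 on 5. The share of all genes at or below background rose with MMS dose in both FF18984 sets at 1 h. In F1 it was 2.58% in mock, 16.1% at the lower dose and 31.4% at the higher dose. In YPD it was 11.2%, 23.1% and 33.4%. On the FF18984 arrays at 30 min it ran from 8.06% to 10.6%. The part of this rise in the differences from mock at 1 h was not tested. Set against the 95th percentile of blank positions on the same array, 7 to 17 of the 34 genes lay below it on the FF18984 arrays at 1 h, 26 to 30 on those at 30 min, and 21 to 26 on the BY4742 arrays. Of all genes 56.6% to 72.2% did on the FF18984 arrays at 1 h, 82.6% to 85.7% on those at 30 min, and 76.1% to 78.3% on the BY4742 arrays. The 2 spots of a redox gene differed by a median of 0.23 on the log2 scale. Of 11 mating-type genes 7 separated the strains without overlap and 4 did not (BAR1, MFA1, AGA2 and SAG1). STE2, the a-cell pheromone receptor, was at 0.76 to 2.84 in FF18984 and at -2.15 and -1.65 in BY4742, and STE3, the alpha-cell receptor, was at 1.29 and 1.90 in BY4742 and below 0 in all FF18984 arrays. SAG1, the alpha agglutinin, was at 1.97 and 2.91 in BY4742 and at 2.13 to 3.13 in FF18984 at 30 min. BAR1, an a-cell protease, was at 0.73 and 0.97 in BY4742 and at 0.54 to 1.50 in FF18984. Across all genes the BY4742 arrays, labelled 1 h, had Pearson correlations of 0.828 to 0.863 with the FF18984 YPD arrays labelled 30 min. With those labelled 1 h they had 0.407 to 0.421, so the sampling time of BY4742 rests on its label alone. Precision is limited by the number of arrays. Since nothing says that the sets came from separate cultures, p-values measure the spread between these samples, which may be technical.

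No redox gene passed the test at either dose in FF18984. At 0.0125% MMS against mock 0 of 34 genes had an adjusted p under 0.05 in limma (0.082% of all genes did), and at 0.00125% against mock 0 of 34 did (0% of all genes). Before adjustment 5 of the 34 had a p under 0.05 at 0.0125%, against 13.3% of all genes, and 1 of the 34 at 0.00125%, against 6.43% of all genes. At 0.0125% TRR1 and GTT2 were the 2 above mock, where 6.6% of all genes were, and CTA1, SKN7 and GRX2 the 3 below it, where 6.7% were. At 0.00125% the 1 gene was GTT2, above mock, where 2.9% of all genes were. At 0.0125% the median difference over the 34 genes was 0.06, with 21 above 0 and 13 below, where the median over all genes was -0.0032. At 0.00125% it was -0.14, with 11 above 0 and 23 below, where the median over all genes was -0.0013. Between the doses, 0.0125% against 0.00125%, 0 of 34 genes passed (0.0328% of all genes did), 1 had an unadjusted p under 0.05 (5.35% of all genes did) and the median difference was 0.18. Fewer cells and less RNA per cell cannot be told apart in such bulk samples.

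**Figure D1:**
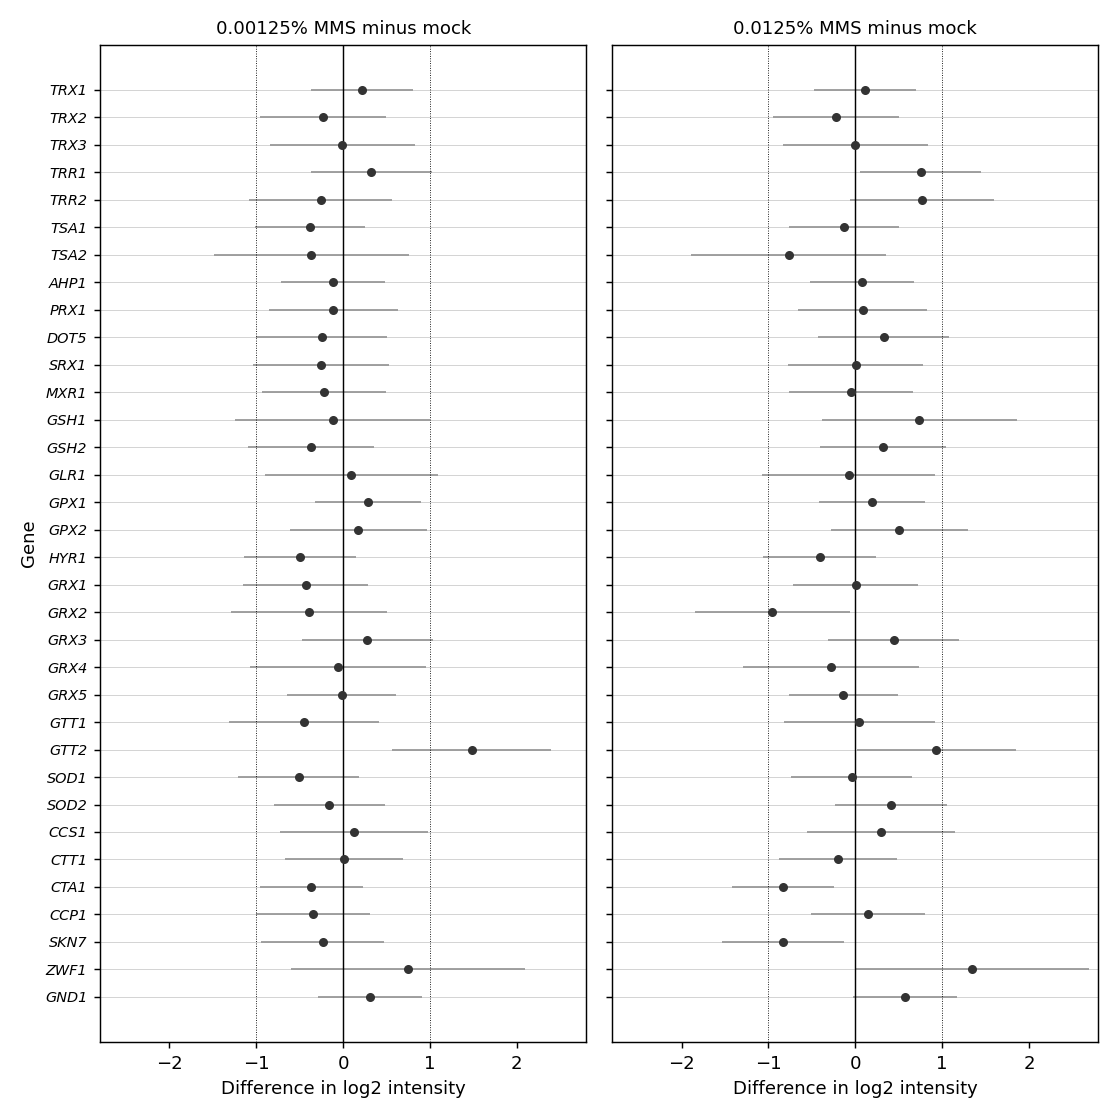
Difference in log2 intensity from mock for each of the 34 genes in FF18984 at 0.00125% MMS (left) and 0.0125% MMS (right), with 95% confidence intervals from the limma fit over 4 membrane sets; dotted lines mark 2-fold. GTT2 at 0.00125%, with an interval of 0.57 to 2.40, lies farthest from 0 at that dose, and ZWF1 has the widest interval at 0.0125%, -0.01 to 2.69.

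For genes above background the intervals set how large a mean difference these arrays could have missed. Standard errors ran from 0.28 to 0.63 over the 34 genes. For 15 of the 34 genes the 95% confidence interval at 0.0125% lay within 2-fold of mock in both directions, and at 0.00125% it did for 15 genes. For the others a 2-fold difference in at least 1 direction lies inside the interval. The 15 at 0.0125% include GRX1, MXR1, TRX3, GTT1 and CTT1. These were at or below background in 10, 7, 5, 4 and 3 of the 12 FF18984 arrays. Those at 0.00125% include MXR1, TRX3, CTT1 and SKN7, the last at or below background in 3. Values there have only an upper bound, so the intervals of these genes do not limit a missed difference. Where 4 values follow one another below, they are from YPD at 1 h, YPD at 30 min, F1 at 1 h and F1 at 30 min.

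In the thioredoxin system both reductases stood above mock on average at 0.0125%, and the cytosolic thioredoxins had differences of either sign. TRR1 (YDR353W), the cytosolic thioredoxin reductase, was at 2.07, 1.23, 2.55 and 1.17 in the 0.0125% arrays, against 0.78, 0.28, 1.42 and 1.53 in the mock arrays. It was higher in 3 of 4 sets and lower in F1 at 30 min, with a mean difference of 0.75 ± 0.32 (SE, adjusted p = 0.335). This was 1.22 with median centring and 0.42 with no background correction. Its 0.00125% arrays were at 1.93, 0.55, 1.94 and 0.89, a difference of 0.32 ± 0.32. TRR2 (YHR106W), the mitochondrial reductase, had 1.48, 0.32, 1.09 and 1.50 at 0.0125% MMS, against 0.05, -0.54, 0.91 and 0.92 in mock. This is higher in 4 of 4 sets, by 0.76 ± 0.39 (SE, adjusted p = 0.412). At 0.00125% it had 0.86, -0.17, 0.32 and -0.72, and it gave the smallest p of the 34 genes between the doses, with 1.02 ± 0.39 and an adjusted p of 0.844.

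TRX1 (YLR043C) and TRX2 (YGR209C), the cytosolic thioredoxins, had differences from mock of 0.11 and -0.23 at 0.0125%. TRX1 was at 3.02, 1.24, 2.95 and -0.30 in mock, at 3.05, 0.94, 3.19 and 0.61 at 0.00125% and at 2.78, 1.18, 3.17 and 0.23 at 0.0125%. TRX2 was at 3.53, 2.58, 3.05 and 2.67 in mock, at 2.79, 2.87, 3.03 and 2.23 at 0.00125% and at 3.29, 1.49, 3.68 and 2.48 at 0.0125%. The 95% interval of the mean TRX2 difference over the 4 sets at 0.0125%, -0.95 to 0.50, lay within 2-fold, as did that of TRX1, -0.48 to 0.70. Single sets can lie outside it. TRX2 stood -1.09 from mock in YPD at 30 min and 0.63 from it in F1 at 1 h. The sign of the TRX2 difference turned with median centring (0.19), with cyclic loess (0.03) and with the series table (0.22). TRX3, the mitochondrial thioredoxin, lay at or below background in 5 of the 12 FF18984 arrays.

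Peroxiredoxins, which reduce peroxides with a reactive cysteine, and the enzymes that repair oxidised protein did not pass at 0.0125%, where the smallest adjusted p of the 7 was 0.539, for TSA2. TSA1 (YML028W), the main cytosolic peroxiredoxin, was at 5.10, 3.69, 4.89 and 4.12 in mock, at 3.90, 3.70, 4.78 and 3.89 at 0.00125% and at 4.60, 4.02, 4.74 and 3.91 at 0.0125%. AHP1 (YLR109W), an alkyl hydroperoxide reductase, was at 4.81, 3.58, 5.06 and 4.11 in mock, at 4.35, 3.95, 5.08 and 3.74 at 0.00125% and at 4.72, 3.66, 5.40 and 4.10 at 0.0125%. Both were above the background on all arrays, and their differences at 0.0125% were -0.13 ± 0.29 and 0.08 ± 0.28 (SE), with intervals of -0.76 to 0.50 and -0.52 to 0.68. TSA1 turned sign with median centring (0.05).

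TSA2 (YDR453C), a paralogue of TSA1, had 1 mock array apart from the rest. It was at -0.86, 1.72, -0.85 and -0.21 in mock, at 0.05, -0.26, -0.57 and -0.88 at 0.00125% and at -0.40, -1.60, -0.48 and -0.79 at 0.0125%. The mock array in YPD at 30 min is the highest of the 12, and the difference at 0.0125% averaged -0.77 ± 0.52 (SE, adjusted p = 0.539), higher in 2 sets and lower in 2. Sulfiredoxin SRX1 (YKL086W), which reactivates overoxidised peroxiredoxin, had 0.94, -0.06, 0.50 and 1.04 in mock, 0.97, 0.52, -1.15 and 1.06 at 0.00125% and 0.98, 0.59, 0.14 and 0.73 at 0.0125%. Its difference at 0.0125% was 0.0042 ± 0.36. DOT5 (YIL010W), a nuclear peroxiredoxin, had 0.88, 0.42, 0.74 and -0.87 in mock, 1.19, 0.16, -0.76 and -0.42 at 0.00125% and 1.21, 0.83, 0.46 and -0.04 at 0.0125%. PRX1 (YBL064C), the mitochondrial peroxiredoxin, had 0.31, 0.27, 0.93 and -0.73 in mock, 0.54, -0.60, 0.85 and -0.46 at 0.00125% and 1.07, -0.35, 1.50 and -1.09 at 0.0125%. It stood above mock at 0.0125% in both 1 h sets and below it in both 30 min sets, by 0.09 on average, and MXR1, a methionine sulfoxide reductase, differed from mock by -0.05. At 0.00125% all 7 genes of this group had a mean difference below 0, from -0.38 to -0.11, and none passed. Of all genes 49.9% lay above 0 at this dose. The single sets did not share the sign. SRX1 was higher in 3 sets and lower in 1, and TSA1 higher in 1 and lower in 3. TSA2, AHP1, PRX1, DOT5 and MXR1 were each higher in 2 sets and lower in 2. AHP1 was at 0.21 with median centring.

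**Figure D2:**
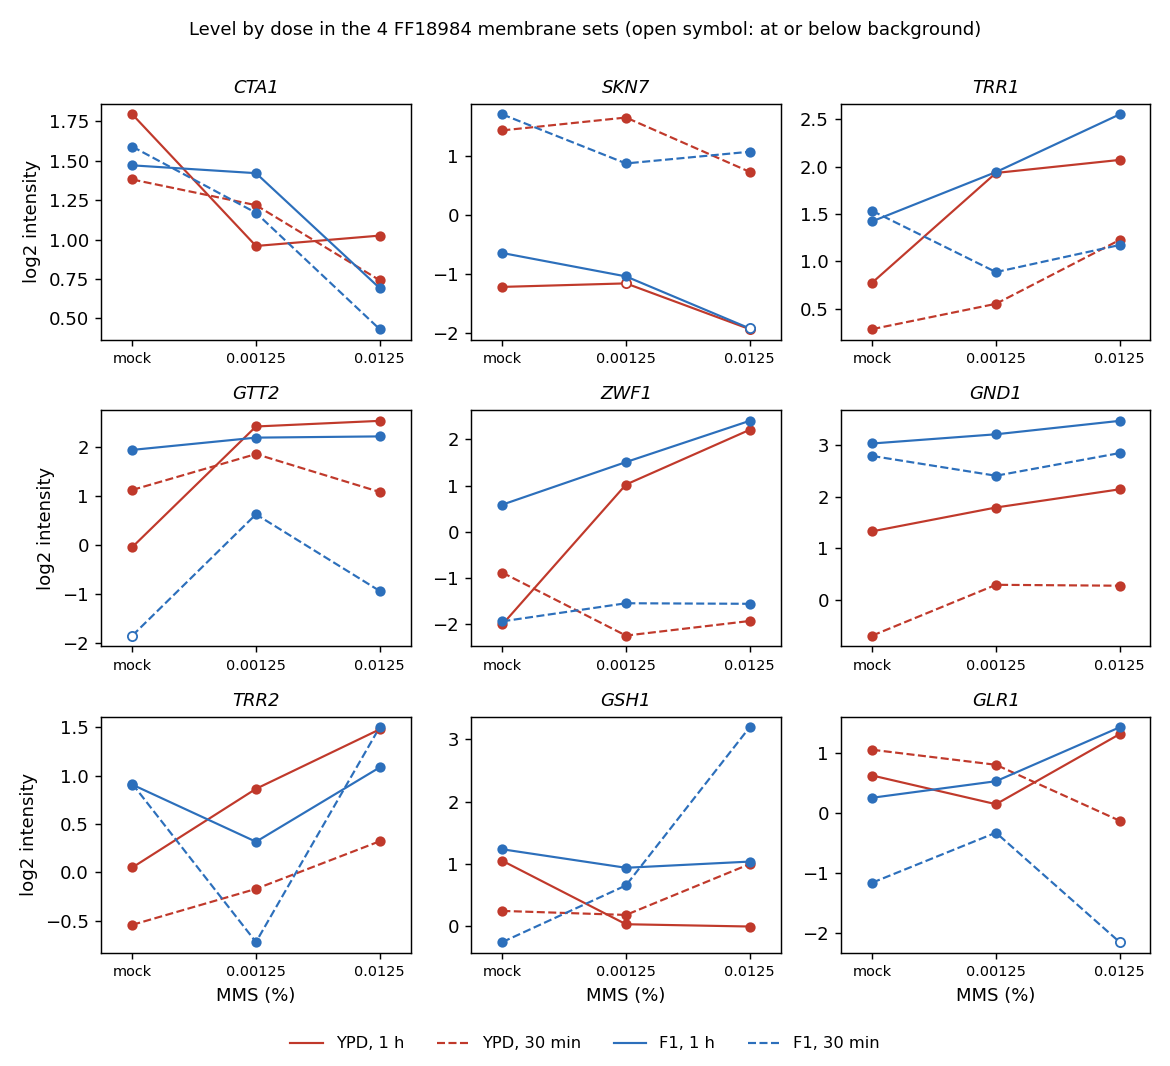
Log2 intensity by dose for 9 of the 34 genes, 1 line per FF18984 membrane set (red YPD, blue F1, solid 1 h, dashed 30 min, open symbols at or below background). CTA1 lies lower at 0.0125% than in mock in all 4 sets, and ZWF1 lies higher at 0.0125% in both 1 h sets, at 2.21 and 2.40 against -2.01 and 0.59.

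In glutathione synthesis and reduction 1 array of GSH1 stood apart. GSH1 (YJL101C), which catalyses the first and limiting step of glutathione synthesis, was at -0.0045, 1.00, 1.04 and 3.19 in the 0.0125% arrays, against 1.05, 0.25, 1.24 and -0.25 in mock. The F1 array at 30 min is the highest of the 12, and 0.0125% stood above mock in 2 sets and below it in 2. The mean difference was 0.74 ± 0.52 (SE, adjusted p = 0.560), and it was -0.17 without the F1 set at 30 min. At 0.00125% GSH1 was at 0.03, 0.18, 0.94 and 0.66. GSH2 (YOL049W), glutathione synthetase, was at -0.42, -1.99, -0.09 and -1.95 at 0.0125%, against -1.42, -1.53, -0.60 and -2.15 in mock, a difference of 0.31 ± 0.34. Its 0.00125% arrays were at -1.27, -1.92, -1.63 and -2.38, and both 30 min arrays among them lay at or below background. GLR1 (YPL091W), glutathione reductase, was at 1.32, -0.13, 1.43 and -2.15 at 0.0125%, the last at or below background, against 0.63, 1.06, 0.26 and -1.16 in mock. It stood above mock in both 1 h sets and below it in both 30 min sets, and its 0.00125% arrays were at 0.15, 0.81, 0.53 and -0.33.

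The glutathione peroxidases had differences of both signs. GPX2 (YBR244W), a phospholipid hydroperoxide peroxidase, was at 1.14, 0.09, 1.13 and -1.89 in the 0.0125% arrays, against 0.99, -0.60, -0.53 and -1.42 in mock. This is a difference of 0.51 ± 0.37 (SE, adjusted p = 0.568), higher in 3 of 4 sets, which was 0.12 without the F1 set at 1 h and 0.0064 with no background correction. At 0.00125% it was at 0.92, -0.51, 0.32 and -1.59. HYR1 (YIR037W), also called GPX3 and known as the peroxide sensor that oxidises Yap1, was at 1.58, 0.25, 1.99 and -0.58 at 0.0125%, against 1.87, 0.10, 2.15 and 0.77 in mock. In the 0.00125% arrays it was at 1.29, -0.05, 1.73 and -0.07, lower than mock in 4 of 4 sets by a mean of 0.50 log2 units (difference -0.50 ± 0.30, adjusted p = 0.836). At 0.0125% the difference was -0.41 ± 0.30, and median centring gave 0.09. GPX1, the remaining member of the family, stood 0.28 above mock at 0.00125% (adjusted p = 0.882), and all 4 sets shared that sign. Of all genes 8.3% were higher and 8.17% lower in 4 of 4 sets at this dose, and of the 34 redox genes 2 were higher (GPX1 and GTT2) and 2 lower (HYR1 and CTA1).

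GRX2 (YDR513W), a dithiol glutaredoxin, had the lowest difference of the 34 genes at 0.0125%. It was at 1.84, -0.87, 1.54 and -2.40 in mock, at 0.91, -1.44, 0.36 and -1.29 at 0.00125% and at 0.07, -1.20, -0.20 and -2.38 at 0.0125%. The gaps between 0.0125% and mock were -1.77 in YPD and -1.75 in F1 at 1 h, while at 30 min the mock arrays in both media, the 0.0125% array in F1 and the 0.00125% array in YPD lay at or below background. The mean was -0.96 ± 0.42 (SE, adjusted p = 0.342), and the 2 spots of GRX2 differed by a median of 1.55. On the 1 h arrays at 0.0125% they differed by 3.61 in YPD and 3.01 in F1, against 0.24 and 0.04 in mock. The gaps at 1 h thus rest on arrays whose 2 spots disagree. With no background correction the mean was -0.078, and with the second spot alone it was -1.63. The monothiol glutaredoxins GRX3 and GRX4, known for their part in iron regulation, had differences of 0.44 and -0.28, and GRX5, which acts in mitochondrial iron-sulfur cluster assembly, had -0.14. GRX3 was higher in 4 of 4 sets. GRX1 was above the background in only 2 of the 12 FF18984 arrays, and no fold is given for it.

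GTT2 (YLL060C), a glutathione transferase, showed the smallest p of the 34 genes at 0.00125%. It was at 2.42, 1.85, 2.19 and 0.62 in the 0.00125% arrays, against -0.05, 1.12, 1.94 and -1.86 in mock, the last at or below background. This is higher in all 4 sets, by 1.48 ± 0.43 (SE), or 2.79-fold (adjusted p = 0.697). With the first spot alone the difference was 0.79, with the second 2.21, and with no background correction 0.74. The gaps were 2.46 in YPD at 1 h and 2.48 in F1 at 30 min but 0.73 and 0.25 in the other sets. At 0.0125% it was at 2.53, 1.08, 2.21 and -0.94, with a difference of 0.93 ± 0.43 (SE, adjusted p = 0.366) that was 0.38 without the YPD set at 1 h, 0.23 with the first spot alone and 1.81 with the second. GTT1, the other transferase, is described with the media.

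The superoxide dismutases and their copper chaperone did not pass. SOD1 (YJR104C), the cytosolic copper-zinc enzyme, was at 3.75, 4.00, 4.66 and 4.37 in mock, at 2.68, 4.05, 3.98 and 4.01 at 0.00125% and at 3.21, 5.18, 4.13 and 4.09 at 0.0125%. The 0.00125% arrays were lower than mock in 3 of 4 sets, with a difference of -0.51 ± 0.32 (SE, adjusted p = 0.840), and at 0.0125% the difference was -0.04 ± 0.32. SOD2 (YHR008C), the mitochondrial manganese enzyme, was at 2.49, 0.96, 3.18 and 2.03 in mock, at 2.67, 0.80, 3.23 and 1.33 at 0.00125% and at 2.86, 1.40, 3.09 and 2.95 at 0.0125%. Its difference at 0.0125% was 0.41 ± 0.30. CCS1, the copper chaperone of Sod1, had 0.29 ± 0.40.

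CTA1 (YDR256C), the peroxisomal catalase, gave the smallest p of the 34 genes at 0.0125%. It was at 1.02, 0.74, 0.69 and 0.43 in the 0.0125% arrays, against 1.79, 1.38, 1.47 and 1.59 in mock, lower in 4 of 4 sets. The difference was -0.83 ± 0.28 (SE), or 1.78-fold lower, with an adjusted p of 0.234. With the first spot alone it was -0.25 and with the second -1.40. In the 0.00125% arrays it was at 0.96, 1.22, 1.42 and 1.17, again lower than mock in 4 of 4 sets, with a difference of -0.37 ± 0.28. CTT1 (YGR088W), the cytosolic catalase, was at 0.54, -2.09, 0.56 and -1.28 in mock, at 0.49, -2.38, 0.81 and -1.16 at 0.00125% and at 0.26, -2.38, 0.43 and -1.38 at 0.0125%. The 3 arrays in YPD at 30 min lay at or below background. CTT1 was lower at 0.0125% in the 3 sets where it was above background, with a difference over the 4 sets of -0.20 ± 0.32, which was 0.07 with no background correction. CCP1, cytochrome c peroxidase, had 0.15 ± 0.31.

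SKN7 (YHR206W), the regulator that acts with Yap1 on many of these genes, was at -1.94, 0.73, -1.93 and 1.07 in the 0.0125% arrays, against -1.22, 1.43, -0.65 and 1.70 in mock. It was lower in 4 of 4 sets, by 0.63 to 1.28, with a mean difference of -0.83 ± 0.33 (SE, adjusted p = 0.299), but the difference was 0.06 with no background correction. Both 1 h arrays at 0.0125% lay at or below background. At 0.00125% it was at -1.16, 1.65, -1.04 and 0.87, the first at or below background, with a difference of -0.24 ± 0.33. Counting every set by sign, whether above background or not, 9.06% of all genes were lower in 4 of 4 sets at 0.0125%, as were CTA1, SKN7 and CTT1, the last with 1 set in which both arrays lay at or below background. TRR2, GRX3 and GND1 were higher in 4 of 4 sets, as were 8.25% of all genes.

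Neither NADPH gene passed, and the gaps of ZWF1 lay far apart between the sets. ZWF1 (YNL241C), the dehydrogenase of the first step of the pentose phosphate pathway, was at 2.21, -1.93, 2.40 and -1.56 in the 0.0125% arrays, against -2.01, -0.88, 0.59 and -1.94 in mock. The 0.00125% arrays were at 1.02, -2.25, 1.51 and -1.55, between mock and 0.0125% in both 1 h sets. The gaps between 0.0125% and mock were 4.21 in YPD and 1.81 in F1 at 1 h, and -1.05 in YPD and 0.38 in F1 at 30 min. The mean over the 4 sets was 1.34 ± 0.63 (SE), or 2.53-fold, with an adjusted p of 0.378, and it was 0.38 without the YPD set at 1 h and 0.62 with no background correction. GND1 (YHR183W), phosphogluconate dehydrogenase of the same branch, was at 1.33, -0.69, 3.03 and 2.79 in mock, at 1.79, 0.29, 3.21 and 2.40 at 0.00125% and at 2.14, 0.27, 3.47 and 2.84 at 0.0125%. It was higher in 4 of 4 sets at 0.0125%, by 0.57 ± 0.28 (SE, adjusted p = 0.398).

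**Figure D3:**
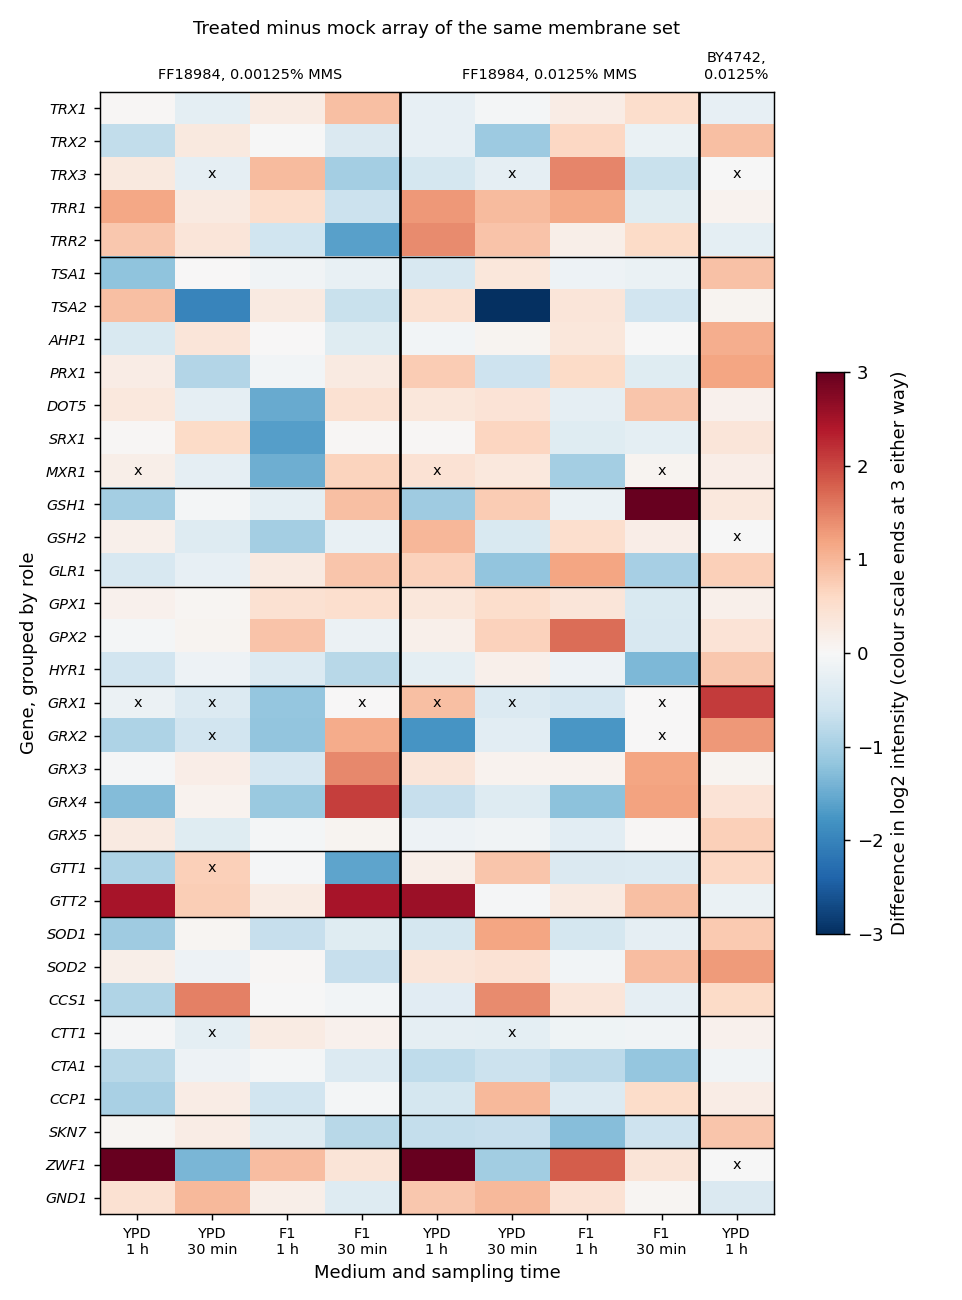
Difference in log2 intensity between each treated array and the mock array of its own membrane set, for the 34 genes grouped by role (rows) and the 9 pairs (columns); a cross marks genes at or below background in both arrays. The YPD pairs at 1 h show the highest values for ZWF1, 3.03 at 0.00125% and 4.21 at 0.0125%, and in BY4742 most genes lie above 0.

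Whether the effect of 0.0125% differed between the times was tested with an interaction term, and 0 of 34 genes passed (0.23% of all genes did). Before adjustment 6 of the 34 had a p under 0.05, against 17.1% of all genes. ZWF1 stood 3.01 above mock at 1 h and -0.33 from it at 30 min, a difference between the times of 3.35 ± 0.89 (SE, adjusted p = 0.110). GSH1 had -0.63 at 1 h and 2.10 at 30 min, a difference of -2.73 ± 0.78 (SE, adjusted p = 0.124). GLR1 had 0.93 at 1 h and -1.09 at 30 min, a difference of 2.02 ± 0.65 (SE, adjusted p = 0.146). With median centring in place of quantile normalization ZWF1, GLR1 and TRR1 passed this test, among 447 of all genes, and without the YPD set at 30 min GSH1 passed it, among 158. The effect of 0.0125% in YPD against that in F1 was tested the same way, and 0 of 34 genes passed (0% of all genes), with 0 under an unadjusted p of 0.05 against 4.15% of all genes. The smallest p there belonged to GSH1, with -1.78 ± 1.02, TRX2, with -0.89 ± 0.69, and TSA2, with -1.32 ± 1.08 (SE). The share of all genes at or below background rose with dose in both 1 h sets. Its part in the differences between the times was not tested.

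A further list of pathway genes outside the 34, among them Yap1 and its cofactor, other glutaredoxins, glutathione turnover, glyoxalases and the rest of the pentose phosphate pathway, had 45 of 47 members on the arrays. This list too was drawn up with earlier results of these data known, so its counts beside those of all genes are description only. At 0.0125% against mock 0 of the 45 passed (0.082% of all genes did). Of the 45, 29 lay above 0 and 16 below, where 49.7% of all genes lay above 0, and the median was 0.10. The smallest p belonged to OYE3 and OYE2, NADPH oxidoreductases of the old yellow enzyme family, to YAP1, the peroxide-responsive transcription factor, and to TKL1, transketolase. OYE3 stood 1.70 ± 0.36 above mock (SE, adjusted p = 0.112) and YAP1 2.02 ± 0.54 (adjusted p = 0.150), both higher in 4 of 4 sets. OYE2 stood 0.95 ± 0.29 above mock (adjusted p = 0.210, 4 of 4 sets) and TKL1 1.38 ± 0.45 (adjusted p = 0.229, 3 of 4 sets). Before adjustment 6 of the 45 stood above mock and 1 below with a p under 0.05, where 6.6% and 6.7% of all genes did.

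GND1 and GTT1 differed between the culture media. In YPD against F1, 2 of 34 genes passed the test (5.25% of all genes did), both lower in YPD (1.95% of all genes were). GND1 ran from -0.69 to 2.14 with a median of 0.81 in the 6 YPD arrays, against 2.40 to 3.47 with a median of 2.94 in the 6 F1 arrays. The groups did not overlap, and GND1 was 4.29-fold lower in YPD, with a log2 difference of -2.10 ± 0.31 (SE, adjusted p = 0.00157). The difference was -1.48 within the 1 h sets and -2.72 within the 30 min sets.

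GTT1 (YIR038C), a glutathione transferase of the endoplasmic reticulum, was at -1.29, -2.20 and -1.12 in YPD at 1 h under mock, 0.00125% and 0.0125%, and at -2.38, -1.66 and -1.54 in YPD at 30 min. In F1 it was at 1.32, 1.28 and 0.89 at 1 h and at 0.83, -0.74 and 0.43 at 30 min. Only 2 of the 6 YPD arrays, mock at 1 h and 0.0125% at 30 min, lay above the background, where all 6 F1 arrays did. The other 4 have only an upper bound, so no fold is given. The log2 difference between the values as they stand was -2.37 ± 0.38 (SE, adjusted p = 0.00224), and it was -2.70 within the 1 h sets and -2.04 within the 30 min sets. The groups did not overlap for GTT1 either, and of all genes 0.82% were lower in YPD without overlap and 1.64% higher. With no background correction GND1 alone passed.

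**Figure D4:**
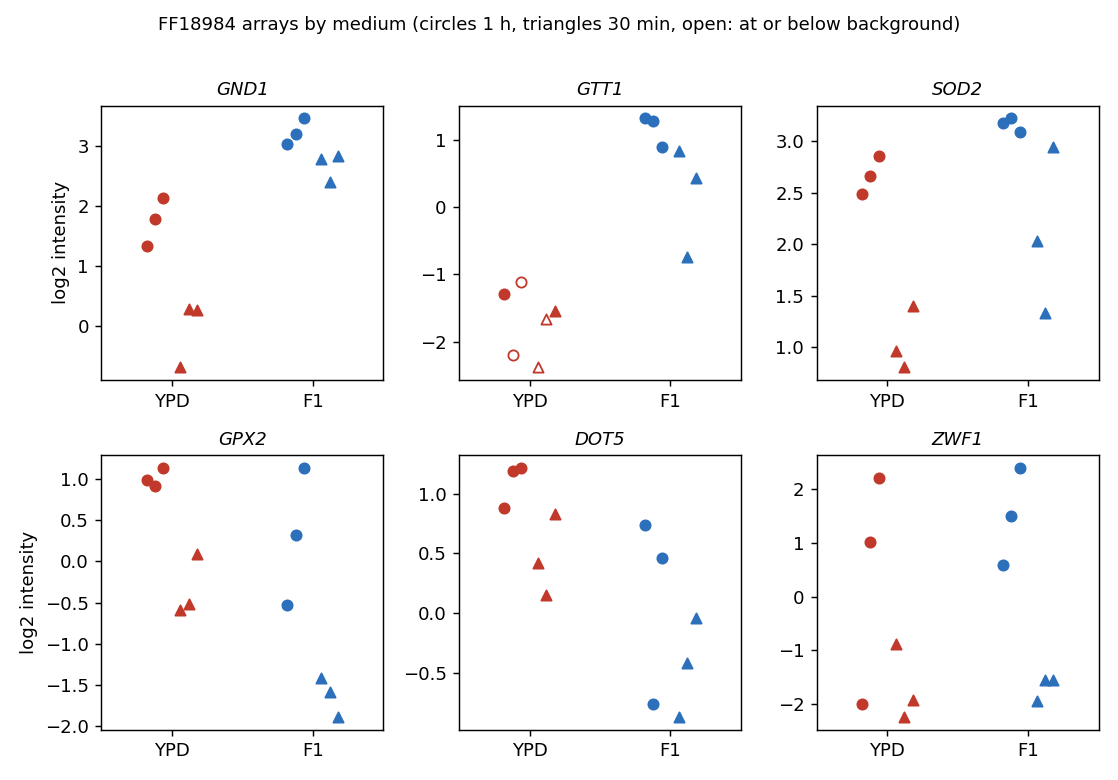
Log2 intensity of 6 of the redox genes in the 6 YPD and 6 F1 arrays of FF18984 (circles 1 h, triangles 30 min, open symbols at or below background; within each cluster mock, 0.00125% and 0.0125% run left to right). GND1 and GTT1 are lower in every YPD array than in any F1 array, and the other 4 genes overlap between the media.

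The other redox genes did not pass between the media. GPX2 ran from -0.60 to 1.14 in YPD with a median of 0.51, and from -1.89 to 1.13 in F1 with a median of -0.98. DOT5 ran from 0.16 to 1.21 in YPD with a median of 0.85, and from -0.87 to 0.74 in F1 with a median of -0.23. SOD2 ran from 0.80 to 2.86 in YPD with a median of 1.94, and from 1.33 to 3.23 in F1 with a median of 3.02. All 3 overlapped between the media, with log2 differences of 1.00 ± 0.35 for GPX2 (SE, adjusted p = 0.108), 0.93 ± 0.33 for DOT5 (adjusted p = 0.112) and -0.77 ± 0.29 for SOD2 (adjusted p = 0.139). ZWF1, of the same branch of the pathway as GND1, had -0.55 ± 0.57 (SE, adjusted p = 0.637). The median over the 34 genes was -0.07, where that over all genes was -0.02. Of the 45 pathway genes outside the list 1 passed, where 5.25% of all genes did. This was PDI1, protein disulfide isomerase, lower in YPD by 1.46 ± 0.30 log2 units (difference -1.46, adjusted p = 0.0096). Each medium rests on 2 membranes, which the fit took as a random block, so medium and membrane cannot be told apart beyond that.

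Between the sampling times the share of redox genes that passed was near that of all genes, and nearly all of those were higher at 1 h. At 1 h against 30 min 20 of 34 genes passed (51.5% of all genes did), 19 higher (26.9% of all genes) and 1 lower (24.6%). Each time rests on 2 membranes, and all arrays of a membrane share 1 time, so time and membrane cannot be told apart beyond that. With a block correlation of 0.0744 the fit took the arrays of a membrane as nearly separate samples, so these p-values may be too small. Across all genes the median correlation of FF18984 arrays was 0.403 between the times, 0.799 within 30 min and 0.834 within 1 h. The 1 h and 30 min arrays also differ in how many genes exceed the blank positions, whose part in these differences was not tested. The median over the 34 genes was 1.04, where that over all genes was 0.11. SKN7 was the gene lower at 1 h, at -1.94 to -0.65 in the 1 h arrays with a median of -1.19, against 0.73 to 1.70 in the 30 min arrays with a median of 1.25. The groups did not overlap, and the difference was -2.56 ± 0.31 (SE, adjusted p = 5.86e-06), with 3 of the 6 arrays at 1 h at or below background.

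Among genes higher at 1 h, TRX1 ran from 2.78 to 3.19 in the 1 h arrays with a median of 3.04, against -0.30 to 1.24 with a median of 0.78 in the 30 min arrays, a difference of 2.37 ± 0.30 (SE). CTT1 ran from 0.26 to 0.81 at 1 h with a median of 0.51, against -2.38 to -1.16 with a median of -1.73 at 30 min, a difference of 2.29 ± 0.31, with 3 of the 6 arrays at 30 min at or below background. HYR1 ran from 1.29 to 2.15 at 1 h with a median of 1.80, against -0.58 to 0.77 with a median of 0.02 at 30 min, a difference of 1.70 ± 0.29. Sizes that involve such arrays are approximate. None of these 3 overlapped between the times. GRX2 ran from -0.20 to 1.84 at 1 h with a median of 0.63, against -2.40 to -0.87 with a median of -1.37 at 30 min, a difference of 2.35 ± 0.39, with 4 of the 6 arrays at 30 min at or below background. In all, 8 genes were higher at 1 h with no overlap (TRX1, AHP1, PRX1, HYR1, GRX1, GRX2, CTT1 and CCS1), where 14.8% of all genes were, and 1 was lower, where 13.6% were. Of GRX1, all 6 arrays at 30 min and 4 of 6 at 1 h lay at or below background. By role the passing genes were 4 of 5 in the thioredoxin system, 3 of 7 peroxiredoxins and repair enzymes, 1 of 3 in glutathione synthesis and reduction, 2 of 3 glutathione peroxidases, 2 of 5 glutaredoxins, 1 of 2 glutathione transferases, 2 of 3 in the superoxide dismutase group, 2 of 3 catalases and peroxidase, SKN7, and both NADPH genes. The direction was the same in both media for all 20 genes, and without the F1 set at 1 h 12 genes passed.

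The BY4742 arrays are also labelled 1 h. SKN7 was at 1.52 at 0.0125% and 0.68 in mock in BY4742, where FF18984 in YPD averaged -1.44 at 1 h and 1.27 at 30 min. CTT1 was at -1.83 and -1.96 in BY4742, where FF18984 in YPD averaged 0.43 at 1 h and -2.28 at 30 min. Of the 34 genes, 22 had a BY4742 mean nearer to the FF18984 YPD mean at 30 min than to that at 1 h, where 70.7% of all genes did. Of the 20 that passed between the times 17 did, but these were chosen with the same FF18984 arrays. The share over all genes that passed between the times was not counted, so the 17 have no like share beside them. Strain, membrane and hybridisation cannot be told apart here.

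In BY4742 most of the redox genes stood higher at 0.0125% MMS than in mock, with 1 array of each and so no test. Leaving out TRX3, GSH2 and ZWF1, which lay at or below background in both arrays, 26 of 31 genes were above 0 and 5 below, with a median of 0.42. Over all genes 48.0% were above 0 and the median was -0.02. At 2-fold or more, 5 genes were higher, where 5.51% of all genes were, and 0 were lower, where 4.14% of all genes were. The 5 were SOD2, at 2.03 at 0.0125% against 0.74 in mock, PRX1, at -0.56 against -1.75, and AHP1, at 4.22 against 3.12, together with GRX1 and GRX2. For GRX1 and GRX2 the mock array lay at or below background, so no fold is given. The differences were 1.29 for SOD2, 1.19 for PRX1 and 1.10 for AHP1. TRX2 followed with 0.90, at 3.63 at 0.0125% against 2.73 in mock, and TSA1 had 0.87, at 4.41 against 3.54. At the other end were GND1, at 0.83 against 1.25 (-0.43), TRR2, at 0.34 against 0.63 (-0.29), TRX1, at 1.68 against 1.93 (-0.25), and GTT2, at 1.35 against 1.55 (-0.20).

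Of the other genes described above, GLR1 was at 1.39 at 0.0125% and 0.67 in mock in BY4742, HYR1 at 0.86 and 0.04, and SOD1 at 4.66 and 3.88. GSH1 was at 1.26 at 0.0125% and 0.94 in mock, GPX2 at -0.67 and -1.09, GTT1 at -0.51 and -1.12, and SRX1 at 0.80 and 0.44. These 7 stood above mock by 0.32 or more. TRR1 was at 1.02 at 0.0125% and 0.91 in mock, DOT5 at -0.36 and -0.48, TSA2 at -1.31 and -1.39, and CTA1 at 1.78 and 1.88, all closer to mock.

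**Figure D5:**
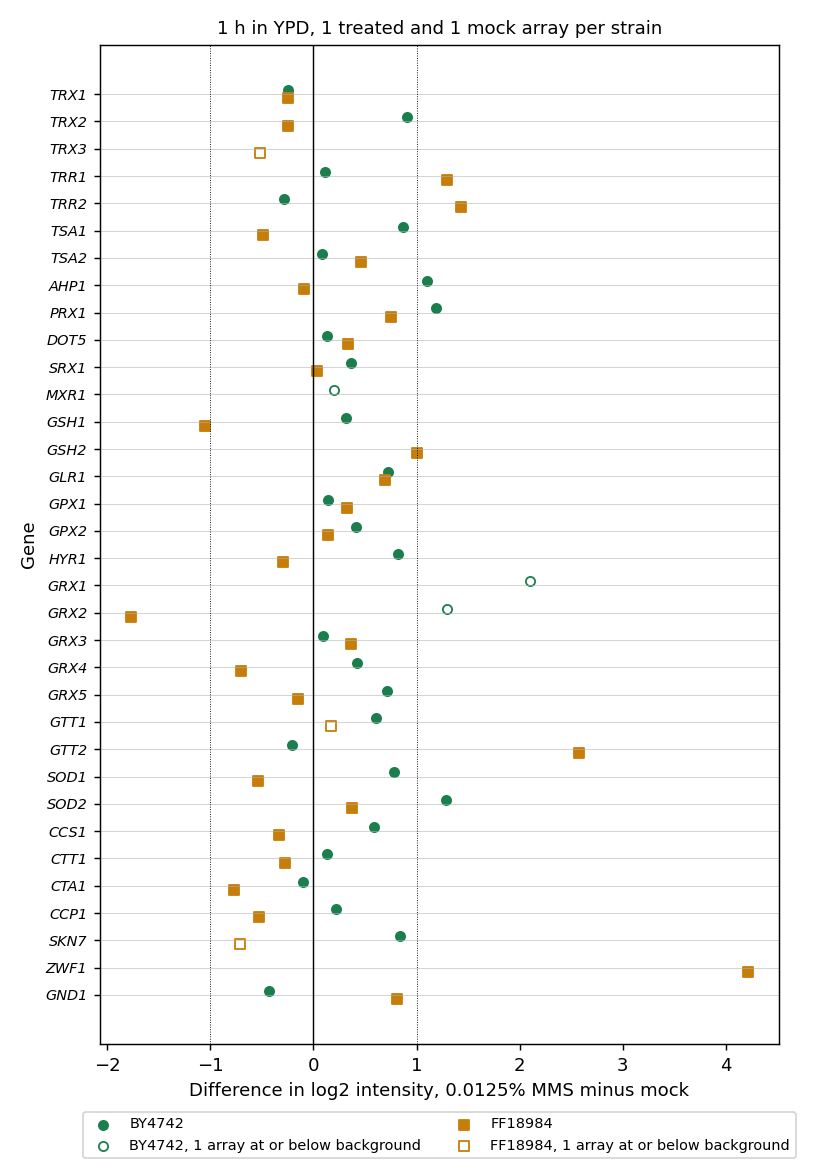
Difference in log2 intensity between 0.0125% MMS and mock at 1 h in YPD for each gene in BY4742 (circles) and in FF18984 (squares), 1 treated and 1 mock array per strain; open symbols have 1 array at or below background, and genes there in both arrays are left out. In BY4742 26 of 31 genes lie above 0, and in FF18984 16 of 32, but with median centring 25 of 31 and 23 of 32 do.

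The same comparison in FF18984, 0.0125% against mock in YPD at 1 h, had 16 of 32 genes above 0 and a median of -0.03, where the median over all genes was -0.08. This split depends on the scaling. With median centring, which moved the median over all genes to 0.20 in this pair, 23 of 32 genes were above 0 with a median of 0.66, and BY4742 had 25 of 31 with a median of 0.35. With quantile normalization 5 genes were higher in this FF18984 pair at 2-fold or more, where 17% of all genes were, and 2 lower, where 19.1% were. There TSA1 had -0.49, AHP1 -0.09, TRX2 -0.25 and SOD2 0.37, while TRR1 had 1.30, TRR2 1.43, GTT2 2.58 and ZWF1 4.21. In BY4742 TRR1 had 0.11, TRR2 -0.29 and GTT2 -0.20, and ZWF1 lay at or below background in both arrays. In the other FF18984 pairs 13 to 18 genes were above 0, and with median centring 26 of 34 were in F1 at 1 h under 0.0125%. With 1 pair per strain the difference between the strains was not tested. Probe sequences are not given in the sources used here, so the signals of close paralogues, such as TRX1 and TRX2, TRR1 and TRR2, TSA1 and TSA2, or GRX1 and GRX2, may hold label from the partner, and values of these genes are uncertain to that extent.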

How the data were processed

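The authors deposited, per the file headers, an intensity per spot (the integral over the spot), a local background value and the difference of both, with no normalization between arrays stated. Of these, the background-subtracted values of both spots entered. Each array was divided by its median positive value, a step added after the files were seen. Values below 0 were set to 0, a pseudocount of 0.187 (the 10th percentile of positive values, in units of the array median) was added, and log2 values of the 2 spots were averaged and quantile normalized over the 14 arrays. The log2 scale is thus not the deposited scale, and fold changes of dim genes are understated.

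Tests used limma 3.58.1 (lmFit, eBayes with trend) in R 4.3.3 on all 6094 genes, with Benjamini-Hochberg adjustment over all of them and a threshold of 0.05. Dose effects and their interactions with time or medium took membrane set as a block over the 12 FF18984 arrays. Medium and time took it as a random block (duplicateCorrelation, statmod 1.5.0, correlation 0.0744). Blank positions gave a 95th percentile per array. The fits were tested on simulated data. Background was not exceeded, in the text "at or below background", where a gene's mean background-subtracted signal was 0 or less. Python 3.11.15 with pandas 2.3.3, numpy 2.4.6 and matplotlib 3.10.9 read the files and drew the figures.

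The genes, roles and lists were chosen with earlier results of these data known. Values by array, or the range and median in groups of 6, are given in FF18984 and BY4742 for the genes with the smallest p in each contrast (6 for 0.0125% against mock, 4 for 0.00125%, 3 for the dose difference and each interaction, 5 for medium and time), for a fixed set of 11 genes, and for the 4 highest and 4 lowest in the BY4742 pair. TSA1 in that pair was named after its value was seen. Alternatives were cyclic loess, median centring, signals with no background correction, a pseudocount 4 times as high, the authors' deposited series table of intensity values, a filter on dim genes, 1 spot alone, no intensity trend, a random block, 1 time alone, and each membrane set left out in turn. No sequences or genome positions were used here.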

Additional observations from a re-analysis of the deposited data

How the results depend on the processing

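No redox gene passed at either dose, or between the doses, under any alternative run. The median over the 34 genes at 0.0125% was 0.21 with median centring and 0.20 with cyclic loess, and 0.08 to 0.12 when each membrane set was left out in turn. At 0.00125% it was -0.048 with median centring, -0.20 and -0.10 with the first and the second spot alone, -0.080 at 30 min and -0.24 at 1 h alone, and -0.18 to -0.10 when each set was left out. The difference in the 0.0125% effect between the times had 3 passing genes with median centring (447 of all 6094 genes passed). It had 0 to 1 when each set was left out, with 1 without the YPD set at 30 min. YPD against F1 had 1 passing gene with no background correction (201 of all genes passed) and 3 (with SOD1) with cyclic loess (453 of all genes). It had 2 to 4 when each set was left out, with 4 without the YPD set at 1 h (GLR1 and GTT2 added). The times had 12 to 18 passing genes when each set was left out, with 12 without the F1 set at 1 h. They had 25 with median centring, where 3499 of all genes passed, against 3139 with quantile normalization. In BY4742 23 to 26 of 31 genes stood above mock over 7 other settings, which were chosen after seeing the data. In the same settings 15 to 23 of 32 did in the FF18984 pair in YPD at 1 h under 0.0125%, with 23 under median centring, where 26 of 34 did in F1 at 1 h.

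Differences that turned sign were not past the threshold in any case. At 0.0125%, GLR1 was at 0.065 with 4 times the pseudocount, 0.10 with cyclic loess, 0.0043 with the first spot, 0.21 with median centring, 0.35 with no background correction, 0.14 with the series table and 0.93 at 1 h alone. SRX1 was at -0.023 with 4 times the pseudocount, -0.39 with no background correction, -0.10 with the second spot, -0.12 with the series table and -0.16 at 1 h alone. TRX2 was at 0.19 at 1 h alone, 0.027 with cyclic loess, 0.19 with median centring and 0.22 with the series table. GSH1 was at -0.63 at 1 h alone. With only the 30 min sets ZWF1 was at -0.33, SOD1 at 0.45 and TSA1 at 0.063. With median centring TSA1 was at 0.052 and HYR1 at 0.093. With no background correction CTT1 was at 0.066 and SKN7 at 0.058, and with the second spot SOD1 was at 0.0013. At 0.00125%, the 30 min sets alone gave -0.19 for TRR1, 0.27 for GRX2, -0.49 for ZWF1, 0.42 for GSH1, -0.043 for GPX2, 0.30 for SRX1 and -0.085 for CTT1, and the 1 h sets gave -0.10 for GLR1. The first spot gave 0.061 for GRX2, 0.12 for TRX2, -0.21 for CTT1, 0.017 for GSH1 and 0.027 for CTA1, and the second gave -0.16 for GPX2. Median centring gave 0.21 for AHP1, -0.022 for CTT1 and 0.069 for TRX2. No background correction gave 0.37 for SKN7, -0.024 for GLR1, -0.23 for GPX2 and 0.0495 for GSH1. The cause was not tested in any of these. Leaving out each set in turn gave, at 0.0125%, -0.45 to 0.12 for SOD1, -0.0099 to 0.13 for AHP1, -0.50 to 0.29 for GLR1, -0.17 to 1.33 for GSH1, -0.21 to 0.13 for SRX1 and -0.51 to 0.063 for TRX2. At 0.00125% it gave -0.53 to 0.21 for SRX1, -0.052 to 0.29 for GPX2, -0.072 to 0.11 for CTT1, -0.15 to 0.29 for GLR1, -0.27 to 0.0020 for AHP1, -0.016 to 1.45 for ZWF1 and -0.46 to 0.18 for GSH1. Genes at or below the background on several arrays, above all GRX1, MXR1, TRX3 and GRX2, have the weakest values. The labels give no replicate numbers, and the dose fits pair each treated array with the mock array of its membrane set.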

Other observations

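The pathway genes outside the 34 were set side by side in the 2 strains at 0.0125% against mock in YPD at 1 h. Each strain has 1 pair and no test was run, and the list was drawn up with earlier results of these data known. In BY4742 2 of 44 were higher by 2-fold or more, where 5.51% of all genes were, and in FF18984 15 of 43 were, where 17% of all genes were. The part of the membranes in this was not tested.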
